A study of Mus musculus with 33 samples.

Results

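The genes described here are 6 ligands and 4 secreted antagonists of the bone morphogenetic protein (BMP) and growth and differentiation factor (GDF) family. The ligands are Bmp2, Bmp4, Bmp5, Bmp7, Gdf5 and Gdf6, and the antagonists are Nog, Chrd, Grem1 and Fst. They were matched by gene symbol, with earlier results of these data known, and all 10 were among the 17120 genes of the count table. BMPs and GDFs are secreted dimers of the TGFβ superfamily that bind type I and type II receptor kinases, which then phosphorylate SMAD1, SMAD5 and SMAD9. These SMADs join SMAD4, enter the nucleus and act on targets such as the Id genes. Noggin (Nog), chordin (Chrd) and gremlin 1 (Grem1) bind the ligands outside the cell and keep them from their receptors, whereas follistatin (Fst) binds activins most tightly and also several BMPs. In the embryo, BMP signaling is known for its roles in cartilage differentiation, and GDF5 and GDF6 for the formation of joints and the attachments of tendons.

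RNA sequencing had been performed on 33 mouse cultures in 11 groups of 3 replicates, at D6 and at 5 later time points. Mouse embryonic stem cells that carry the ScxGFP reporter, a fluorescent marker of the tendon transcription factor gene Scx, were differentiated to paraxial mesoderm (PM) and collected at D6, the first group, which the labels call embryoid bodies. The labels count days from this stage, so that their day 0 is D6 here, and they say that the later cells were plated as monolayers. From D6 the cells were grown in serum-free medium with TGFβ1, FGF2 and the hedgehog agonist SAG, together with 1 of 2 retinoid compounds. CD1530 activates the receptor RARγ and was the study's tendon condition, whereas AGN 193109 (AGN) acts as a pan-RAR inverse agonist and was its fibrocartilage condition. Cells of both conditions were harvested 5 times, from D6.25 through D6.75, then D7.5 and D8.5, until D10. In the study's methods, embryoid bodies were formed with the BMP receptor inhibitor LDN-193189, PM was then specified until D6 with LDN-193189 and the Wnt agonist CHIR, and neither compound is listed after D6. The methods also describe PM specification with AGN added, which the labels of the PM samples do not give. There was no group without a retinoid compound after D6. The stem cells were grown on feeder fibroblasts, and 3 reporter lines were used in the study, but the line behind each library is not given in the sources used here. The replicates are called biological in the methods, and the p-values below measure the spread between these cultures.

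Library totals were 17116084 to 22775275 counts, except for AGN D8.5 replicate 1 with 38120841. Levels are given in CPM, the counts of a gene per 1000000 counts of its library, after scaling of the libraries by the trimmed mean of M values (TMM). Comparisons used the quasi-likelihood test of edgeR over all 17120 genes, and a gene was called at a Benjamini-Hochberg adjusted p below 0.05 within each comparison. The 8 markers of paraxial mesoderm, Dll1, Tcf15, Tbx6, Meox1, Foxc2, Pax3, Msgn1 and Hes7, had mean levels of 15.0, 14.1, 9.56, 5.91, 5.35, 4.56, 3.38 and 0.573 CPM in PM, and none of the 8 was at 0 in all PM libraries. The 5 markers of pluripotent cells summed to between 2613 and 2706 CPM in the PM libraries and at D10 to between 188 and 196 CPM in the CD1530 libraries and between 279.7 and 291 CPM in the AGN libraries. Among them only Pou5f1 had a higher D10 mean with AGN, 149 CPM against 26.6 CPM with CD1530. Nanog, Esrrb, Dppa5a and Zfp42 were at 46.1, 37.9, 74.4 and 7.62 CPM with CD1530. With AGN they were at 35.2, 29.9, 63.9 and 7.24 CPM. In bulk libraries such as these, fewer cells of a type and less RNA per cell cannot be told apart.

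Mean counts over the 33 libraries differed widely among the 10 genes. Grem1 had 2220 counts and Bmp4 1063, and Bmp2, Fst and Bmp7 had 867, 716 and 638. Chrd and Bmp5 followed with 365 and 339. Nog with 37.2, Gdf6 with 18.4 and Gdf5 with 7 counts were rare transcripts, and their values carry the widest intervals. All 10 passed the filter on low counts, which removed no gene of the table. Per kilobase of exon, the highest group mean was 79.6 CPM per kb for Bmp4 in AGN at D10, against 45.3 for Grem1 in AGN at D6.75 and 26.3 for Bmp2 in AGN at D6.75.

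The genes lie on 7 chromosomes of the mouse genome (GRCm38). Bmp2 (chr2:133552159-133562885, plus strand), Bmp7 (chr2:172868012-172940321, minus strand), Gdf5 (chr2:155941023-155945367, minus strand) and Grem1 (chr2:113746164-113758646, minus strand) share chromosome 2. Gdf6 lies at chr4:9844372-9862345 (plus strand), Bmp5 at chr9:75775364-75900310 (plus strand) and Nog at chr11:89300638-89302332 (minus strand). Fst lies at chr13:114452290-114458951 (minus strand), Bmp4 at chr14:46383520-46390669 (minus strand) and Chrd at chr16:20733127-20742384 (plus strand). All 10 are annotated as protein-coding genes, and the values count reads over their exons.

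Promoter windows were found in the RefSeq promoter table of GRCm38.p6 for Bmp4, Bmp5, Chrd and Grem1, and these 4 are also the members that were lower with CD1530 than with AGN at D10. The 250 bases before each start are shown 5′ to 3′ on the gene's own strand, for Bmp4 at chr14:46390670-46390919 (minus strand), Bmp5 at chr9:75775115-75775364 (plus strand), Chrd at chr16:20732877-20733126 (plus strand) and Grem1 at chr2:113758649-113758898 (minus strand). Capitals mark matches, on either strand, to a GC-rich SMAD1/5 motif (GGCGCC), a SMAD3/4 motif (CAGAC) and retinoic acid receptor half-sites (AGGTCA or GGTTCA or AGTTCA).
Bmp4: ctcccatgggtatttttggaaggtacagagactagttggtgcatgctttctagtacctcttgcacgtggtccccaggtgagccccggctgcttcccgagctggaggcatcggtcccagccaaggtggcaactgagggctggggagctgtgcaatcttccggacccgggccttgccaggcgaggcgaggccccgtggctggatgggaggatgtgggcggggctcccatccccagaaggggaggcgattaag
Bmp5: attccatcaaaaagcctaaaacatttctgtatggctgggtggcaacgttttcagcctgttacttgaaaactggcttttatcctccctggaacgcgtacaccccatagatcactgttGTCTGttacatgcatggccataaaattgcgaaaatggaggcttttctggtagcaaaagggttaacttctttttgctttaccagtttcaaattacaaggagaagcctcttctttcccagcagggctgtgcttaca
Chrd: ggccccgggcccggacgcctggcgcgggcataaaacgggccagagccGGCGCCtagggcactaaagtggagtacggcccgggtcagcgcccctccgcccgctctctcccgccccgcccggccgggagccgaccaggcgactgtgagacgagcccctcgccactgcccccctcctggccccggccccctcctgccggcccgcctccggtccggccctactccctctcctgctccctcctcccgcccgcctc
Grem1: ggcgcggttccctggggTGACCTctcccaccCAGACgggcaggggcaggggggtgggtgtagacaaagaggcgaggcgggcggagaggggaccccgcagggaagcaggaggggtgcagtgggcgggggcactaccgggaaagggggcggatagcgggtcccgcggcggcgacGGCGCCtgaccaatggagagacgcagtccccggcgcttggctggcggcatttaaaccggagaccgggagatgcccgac

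The 4 windows had little in common in these letters. Grem1 held 1 match of each kind, at -233 to -228 for the receptor half-site, -219 to -215 for the SMAD3/4 motif and -78 to -73 for the GC-rich motif, where the numbers count bases before the start. Chrd held the GC-rich motif at -203 to -198, Bmp5 held the SMAD3/4 motif at -134 to -130, and Bmp4 held none of the 3. Among all 32817 windows of 250 bases in the table, 9.59% held the GC-rich motif, 42.2% the SMAD3/4 motif and 30.7% a receptor half-site. GC content was 78.0% in Chrd, 72.0% in Grem1, 63.2% in Bmp4 and 42.8% in Bmp5, against a median of 52.4% over all windows. A match is a description of these letters and not a bound site.

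**Figure D1:**
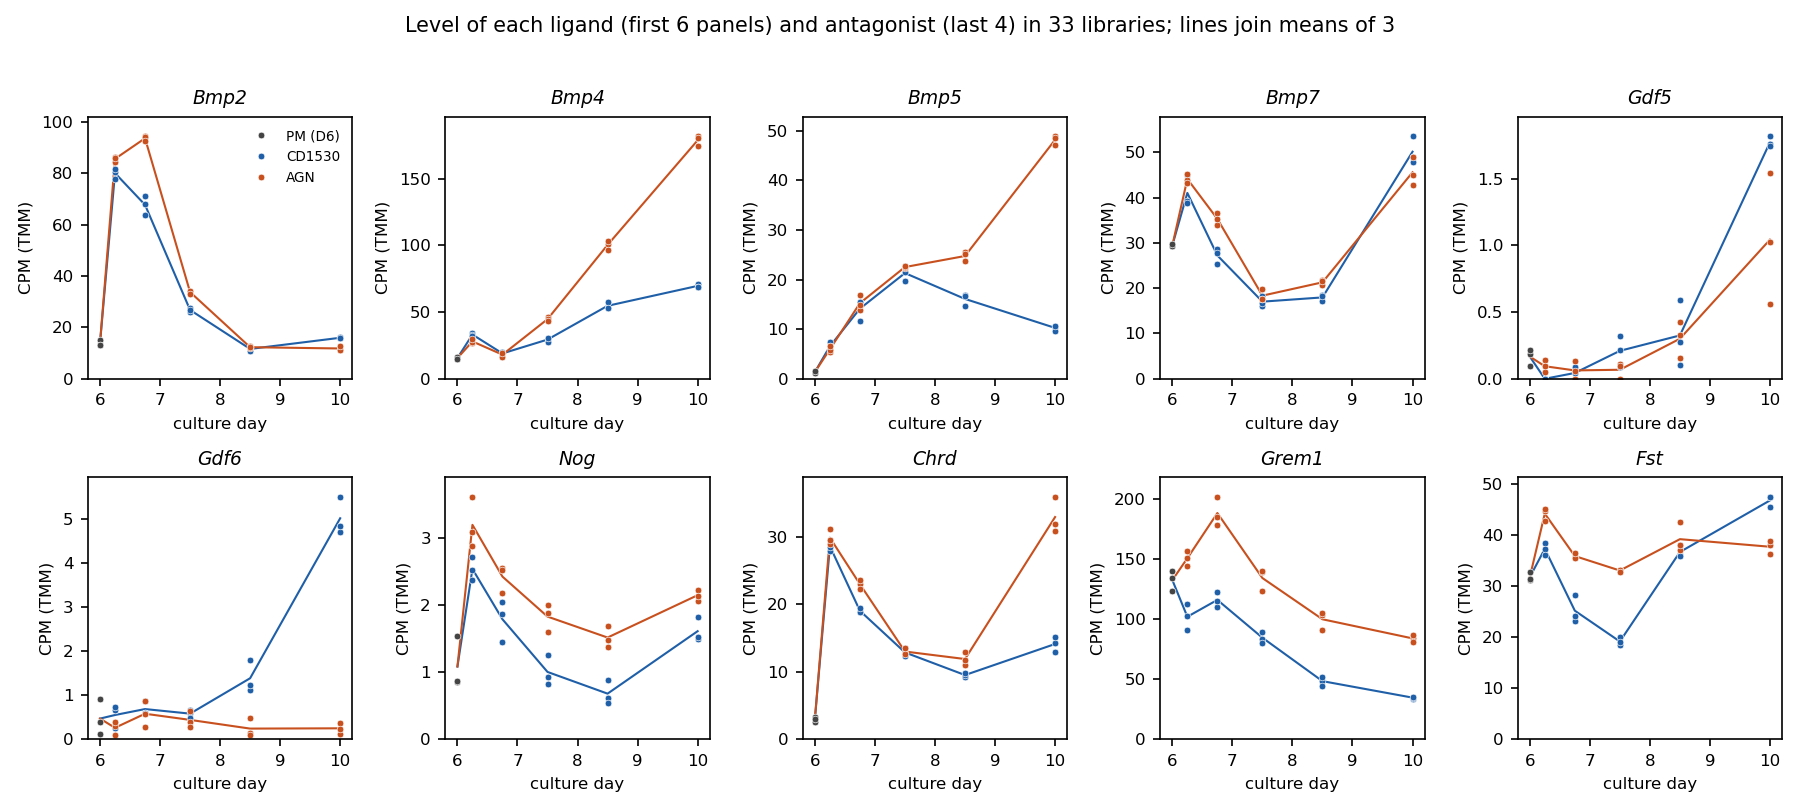
Level (CPM after TMM scaling, y axis from 0) of each gene against culture day, with 1 point per library and lines through the means of 3; dark points are PM at D6, blue CD1530 and orange AGN. Bmp2 peaks within the first day, Bmp4, Bmp5 and Chrd separate by condition up to D10, where Bmp4 means are 69.7 CPM with CD1530 and 179 CPM with AGN, Gdf6 rises with CD1530, and Grem1 is lower with CD1530 at every time point after D6.

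The first question was how the genes moved when PM cells entered the induction medium. Bmp2, an early and broadly acting ligand, and Chrd, the chordin gene, had the steepest increases by D6.25, in both conditions. Bmp2 was at 15.3, 13.1 and 13.1 CPM in the PM libraries, at 80.6, 81.8 and 77.8 CPM in the CD1530 libraries and at 86.4, 84.4 and 86.1 CPM in the AGN libraries. All 6 induced libraries thus stood far above PM. The log2 fold change of Bmp2 against PM was 2.53 (SE 0.06, edgeR adjusted p = 9.6e-33) with CD1530 and 2.63 (SE 0.06, adjusted p = 2.67e-33) with AGN. Chrd was at 2.58, 3.35 and 3.02 CPM in PM, at 29.6, 27.9 and 28.5 CPM with CD1530 and at 28.9, 29.6 and 31.2 CPM with AGN. Its log2 fold changes were 3.26 (SE 0.09) and 3.32 (SE 0.09), about the same in both conditions, whose D6.25 ranges overlapped.

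The other members changed less from PM to D6.25. Bmp5, which is known for skeletal patterning, was at 1.23 to 1.56 CPM in PM and reached a mean of 6.55 CPM with CD1530 and 5.96 CPM with AGN, log2 fold changes of 2.26 (SE 0.16) and 2.13 (SE 0.17). Bmp4, a ligand of mesoderm and of limb and tooth buds, rose by 1.09 (SE 0.06) with CD1530 and 0.85 (SE 0.06) with AGN on the log2 scale. Nog rose by 1.22 (SE 0.21) and 1.55 (SE 0.21), Bmp7 by 0.48 (SE 0.06) and 0.58 (SE 0.06), and Fst by 0.23 (SE 0.06) and 0.48 (SE 0.06). Grem1 moved in opposite directions, with a log2 fold change of -0.38 (SE 0.07, adjusted p = 2.27e-05) with CD1530 and 0.19 (SE 0.07, adjusted p = 0.019) with AGN. The increase of Grem1 with AGN was not called without PM replicate 2, without PM replicate 3 or without AGN D6.25 replicate 3. Gdf6 was not called in either condition.

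Gdf5 had 2, 4 and 4 counts in the PM libraries and no count in the 3 CD1530 D6.25 libraries. It was called lower there (adjusted p = 0.0043), but against the level that 3 counts per library would give, the decrease is at least 1.22-fold and no more can be said. In all, 9 members were called with CD1530 (7 higher, 2 lower) and 8 with AGN (8 higher). Over all genes, 67.8% were called with CD1530, of which 34.5% of all genes were higher and 33.3% lower, and 68.1% were called with AGN, 35.0% higher and 33.1% lower. Most genes of the table thus changed at this step, and the median log2 fold change of the members was 0.78 with CD1530 and 0.71 with AGN, beside 0 and 0.0037 over all genes. Both comparisons share the PM libraries. The plating that the labels give, the new factors and the end of LDN-193189 and CHIR all fall on this step and cannot be told apart.

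After D6.25 the ligands followed separate courses. Bmp2 held 67.7 CPM with CD1530 and 93.6 CPM with AGN at D6.75, and then dropped in both conditions to 26.8 and 33.8 CPM at D7.5 and to 11.6 and 12.3 CPM at D8.5. From D6.75 to D7.5 it had a log2 fold change of -1.34 (SE 0.05) with CD1530 and -1.47 (SE 0.05) with AGN, and from D7.5 to D8.5 of -1.20 (SE 0.07) and -1.46 (SE 0.06). Bmp2 was therefore a transient transcript, with D8.5 and D10 means close to its PM mean of 13.8 CPM. From D8.5 to D10 it rose by 0.46 (SE 0.07) with CD1530 and had a log2 fold change of -0.05 (adjusted p = 0.61) with AGN.

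Summed markers of several other cell types also peaked within the first day and declined by D8.5, although not every marker did. The first were 5 endoderm markers (Sox17, Foxa1, Gata6, Afp and Cldn6). Their summed level was 44.2 to 50.9 CPM in PM, 302 to 319 CPM with CD1530 and 333 to 337 CPM with AGN at D6.25, and 186.6 to 198 CPM and 258 to 291 CPM at D6.75. At D8.5 it was down to 68.0 to 69.4 CPM and 84.6 to 86.9 CPM. The 6 surface ectoderm markers (Krt8, Krt18, Tfap2a, Tfap2c, Grhl2 and Epcam) summed to a mean of 628 CPM in PM and of 1001 CPM with CD1530 and 1040 CPM with AGN at D6.25. They were at 727 and 1067 CPM at D6.75 and at 245 and 309 CPM at D8.5. Of these markers only Krt8 and Krt18 rose by D6.25. Krt8 went from 98.2 CPM in PM to 389 and 409 CPM, and Krt18 from 85.7 to 297 and 308 CPM. Tfap2a, Tfap2c, Grhl2 and Epcam had lower means at D6.25 than in PM in both conditions. The 6 lateral plate markers (Foxf1, Hand1, Hand2, Gata4, Gata6 and Isl1) went from a summed mean of 5.17 CPM in PM to 69.1 and 71.7 CPM at D6.25, 54.2 and 85.5 CPM at D6.75 and 27.1 and 19.9 CPM at D8.5. Most of the D6.25 sum was Gata4, at 19.2 and 18.6 CPM, and Gata6, at 46.5 and 48.7 CPM. Gata6 is also in the endoderm list. At D6.25 Foxf1, Hand1, Hand2 and Isl1 had means of 0.358 to 1.45 CPM with CD1530 and 0.615 to 1.99 CPM with AGN. Between D6.25 and D6.75 with AGN the mean endoderm sum was lower at the later point, whereas the means of the other two sums and of Bmp2 were higher. No marker of the 3 lists above was at 0 in every library of a group. The 4 muscle markers (Myod1, Myog, Des and Actc1) also peaked early. Their mean sum was 5.09 CPM in PM, 37.8 and 32.5 CPM at D6.25 and 13.1 and 11.2 CPM at D8.5. Node and notochord markers, named below, went from 83.7 CPM in PM to 124 and 135 CPM and then to 7.04 and 20.9 CPM at the same time points. The part of such cells in the Bmp2 course was not tested.

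Bmp4 ran the other way. From D6.25 to D6.75 it had a log2 fold change of -0.80 (SE 0.06) with CD1530 and -0.63 (SE 0.06) with AGN, and then it climbed at each later step. The increases with AGN were 1.31 (SE 0.06) to D7.5, 1.17 (SE 0.05) to D8.5 and 0.83 (SE 0.05) to D10. With CD1530 they were 0.63 (SE 0.06), 0.90 (SE 0.06) and 0.35 (SE 0.05). By D10 Bmp4 was the most abundant ligand per exon length in both conditions.

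Bmp5 climbed together in both conditions up to D7.5 and then parted. Its means at D7.5 were 21.3 CPM with CD1530 and 22.5 CPM with AGN, with overlapping libraries. With CD1530 it then had log2 fold changes of -0.40 (SE 0.09) to D8.5 and -0.65 (SE 0.10) to D10. With AGN it had a log2 fold change of 0.14 (adjusted p = 0.17) to D8.5 and rose by 0.96 (SE 0.08) to D10. The last step thus had opposite signs in the 2 conditions, and both were called.

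Bmp7, a ligand of kidney, eye and skeleton, traced a dip in both conditions. It fell from 41.0 and 44.1 CPM at D6.25 to 17.02 and 18.3 CPM at D7.5 with CD1530 and AGN. From D8.5 to D10 it came back, by 1.48 (SE 0.07) with CD1530 and 1.10 (SE 0.07) with AGN on the log2 scale, to 50.1 and 45.6 CPM.

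Gdf5 and Gdf6, close relatives of each other, were late and low. Gdf5 had no more than 12 counts in any library before D10, where it had 36, 32 and 31 counts with CD1530 and 9, 17 and 26 counts with AGN. From D8.5 to D10 it rose by 2.46 (SE 0.42) with CD1530 and 1.77 (SE 0.44) with AGN on the log2 scale. Gdf6 rose with CD1530, by 1.26 (SE 0.40, adjusted p = 0.0122) from D7.5 to D8.5 and by 1.86 (SE 0.29) to D10. The step to D8.5 was not called without CD1530 D7.5 replicate 3 or without CD1530 D8.5 replicate 1. With AGN no step of Gdf6 was called, although 1 step each was called without PM replicate 3, without AGN D6.75 replicate 3 and without AGN D8.5 replicate 3.

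Among the antagonists, Chrd declined after its early peak to 9.51 CPM with CD1530 and 11.9 CPM with AGN at D8.5, and then rose to D10 by 0.57 (SE 0.09) and 1.49 (SE 0.07) on the log2 scale. Nog, the noggin gene, had its highest mean at D6.25 as well, 2.53 and 3.19 CPM, and its lowest after PM at D8.5, 0.677 and 1.51 CPM. It rose again to D10, by 1.26 (SE 0.27) with CD1530 and 0.48 (SE 0.21, adjusted p = 0.045) with AGN. The increase with AGN was lost without any 1 of 5 of its 6 libraries, all but AGN D8.5 replicate 1, in the DESeq2 test, with library sizes alone, with the compared groups alone and with the replicate block.

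Grem1 was the only antagonist below its PM mean of 132 CPM in both conditions at D10. With CD1530 it declined from 115.8 CPM at D6.75 to 34.5 CPM at D10, and each of the 3 steps was called. With AGN it rose to 188 CPM at D6.75 and then declined to 83.8 CPM. Fst followed a valley with CD1530, from 37.3 CPM at D6.25 to 19.1 CPM at D7.5 and back to 46.8 CPM at D10. With AGN its means stayed between 33.1 and 44.2 CPM after D6.

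The number of members called at each step was read against all genes. With CD1530 it was 8 members at the step to D6.75 (45.9% of all genes called), 8 at D7.5 (34.2%), 7 at D8.5 (36.5%) and 10 at D10 (57.3%). With AGN it was 7 at D6.75 (43.7%), 6 at D7.5 (30.3%), 6 at D8.5 (42.1%) and 7 at D10 (59.4%). Against PM, 10 members were called at D10 with CD1530 (83.2% of all genes) and 9 with AGN (82.0%). The change over the whole course was steepest for Bmp5 with AGN, from 1.29, 1.23 and 1.56 CPM in PM to 47.1, 48.9 and 48.5 CPM, a fold of 35.5 (log2 5.15, SE 0.12). Bmp4 rose 4.47-fold with CD1530 and 11.5-fold with AGN, and Chrd 4.72-fold and 11.03-fold. Grem1 had log2 fold changes of -1.94 (SE 0.08) with CD1530 and -0.66 (SE 0.07) with AGN. Bmp2 ended slightly above PM with CD1530 (log2 0.21, SE 0.07) and slightly below it with AGN (log2 -0.23, SE 0.07), but the first call was lost without PM replicate 2, with library sizes alone and with the compared groups alone, and the second without PM replicate 1.

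**Figure D2:**
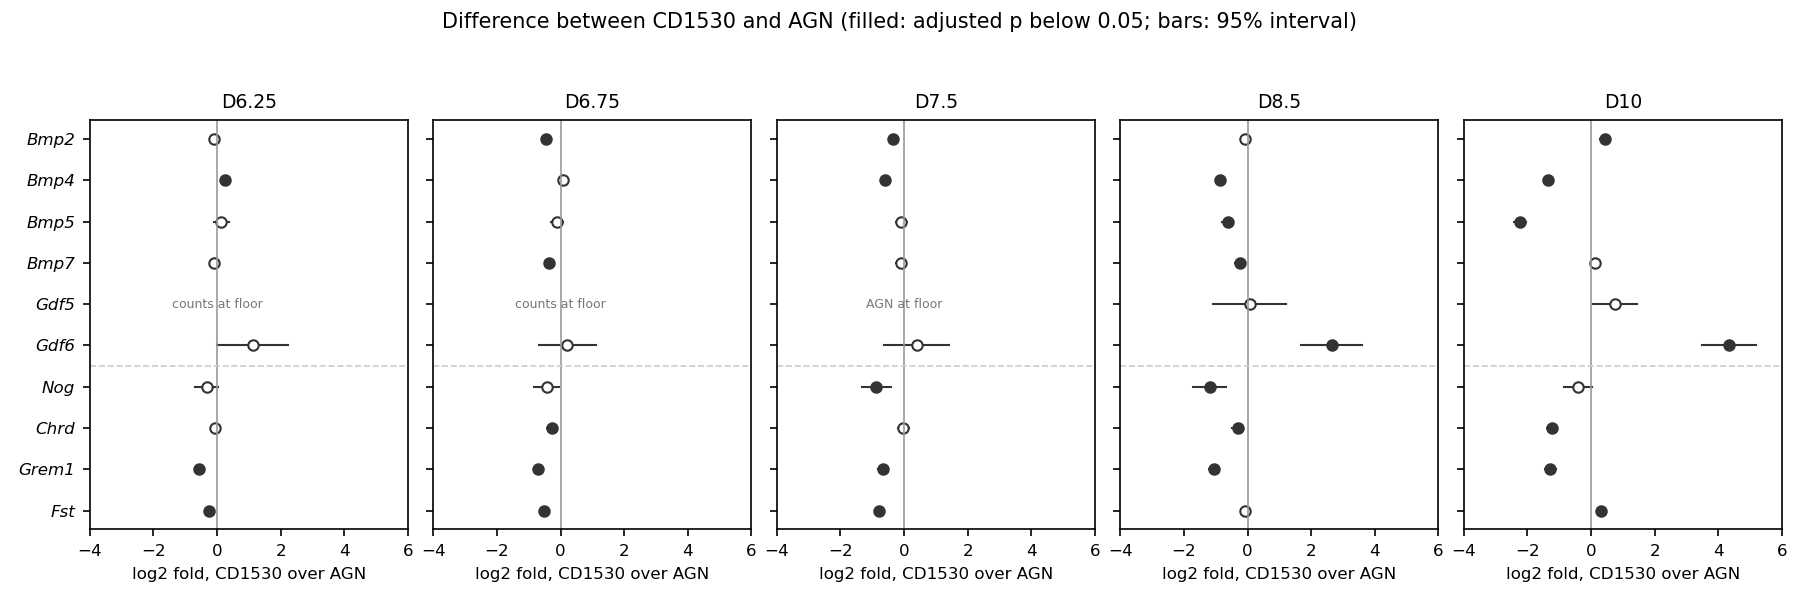
Log2 fold change of CD1530 over AGN (x axis) for each gene (y axis; ligands above the dashed line, antagonists below it) at 5 time points, with 95% intervals; filled points have an adjusted p below 0.05. Grem1 lies left of 0 at all 5 time points, and the spread of the points widens to D10, from -2.23 for Bmp5 to 4.33 for Gdf6; Gdf5 is left out where its counts were at the floor of 3.

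The second question was how the 2 conditions differed at each time point. Members called numbered 3 at D6.25, when 1.92% of all genes were called, 5 at D6.75 (18.0%), 5 at D7.5 (26.9%), 7 at D8.5 (40.0%) and 7 at D10 (46.6%). At D6.25 the 3 were Grem1 and Fst, both lower with CD1530, and Bmp4, higher.

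Grem1 separated first and stayed apart. At D6.25 it was at 90.6, 112 and 102 CPM with CD1530 and at 151, 144 and 157 CPM with AGN, so that the groups did not overlap after 0.25 days. The log2 fold change was -0.56 (SE 0.07, adjusted p = 4.83e-06). It was -0.70 (SE 0.07) at D6.75, -0.67 (SE 0.07) at D7.5, -1.05 (SE 0.08) at D8.5 and -1.28 (SE 0.08, adjusted p = 2.77e-14) at D10. At D10 the libraries were at 33.7, 34.5 and 35.2 CPM with CD1530 and at 84.1, 86.7 and 80.6 CPM with AGN. Grem1 was lower with CD1530 at all 5 time points, and none of these calls was lost in any alternative that kept the threshold on the adjusted p alone.

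Fst changed sides. It was lower with CD1530 at D6.25 (log2 -0.25, SE 0.06, adjusted p = 0.0097), D6.75 (-0.51, SE 0.06) and D7.5 (-0.79, SE 0.06). At D7.5 its libraries were at 20.0, 18.4 and 19.0 CPM with CD1530 and at 33.1, 33.2 and 32.8 CPM with AGN. The difference was not called at D8.5 (-0.09, 95% interval -0.21 to 0.03), and at D10 Fst was higher with CD1530 by 0.31 (SE 0.06, adjusted p = 2.35e-05), at 45.5, 47.5 and 47.4 CPM against 38.0, 38.8 and 36.4 CPM. The call at D6.25 was lost without CD1530 D6.25 replicate 3, without AGN D6.25 replicate 1 or without AGN D6.25 replicate 3.

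Bmp4 also changed sides, in the other direction. At D6.25 it was slightly higher with CD1530, at 34.4, 33.2 and 31.9 CPM against 26.5, 27.9 and 29.6 CPM (log2 0.24, SE 0.06, adjusted p = 0.0113). That call was lost without CD1530 D6.25 replicate 1, AGN D6.25 replicate 1 or AGN D6.25 replicate 2. At D6.75 it was not called (log2 0.07, 95% interval -0.06 to 0.20). It was then lower with CD1530 by a growing margin, with log2 fold changes of -0.60 (SE 0.06) at D7.5, -0.88 (SE 0.05) at D8.5 and -1.36 (SE 0.05, adjusted p = 2.34e-25) at D10. The D10 libraries were at 71.0, 69.1 and 68.9 CPM with CD1530 and at 182, 180.5 and 174 CPM with AGN, which is 0.39 times the AGN level.

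Bmp5 differed later than Bmp4. It was not called at D6.25, D6.75 or D7.5, where its log2 fold changes were 0.13, -0.11 and -0.08. At D8.5 it was lower with CD1530 by a log2 fold change of -0.62 (SE 0.09). At D10 the libraries were at 10.4, 9.69 and 10.7 CPM with CD1530 and at 47.1, 48.9 and 48.5 CPM with AGN, a log2 fold change of -2.23 (SE 0.09, adjusted p = 8.85e-24). Bmp5 is in a fibrocartilage gene module that the study built from these same libraries, so this is not independent evidence of its direction.

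Cartilage markers also came to differ between the conditions, in the same direction as Bmp4 and Bmp5. The 6 markers (Sox9, Col2a1, Acan, Matn4, Col9a1 and Col11a2) summed to 239 to 244 CPM with CD1530 and to 3145 to 3281 CPM with AGN at D10, and all 6 were called lower with CD1530. At D8.5 the sums were 416 to 436 CPM and 1166 to 1208 CPM, and at D7.5 539 to 562 CPM and 759.8 to 797 CPM. With CD1530 the sum thus fell from D7.5 to D10, as Bmp5 did, while Bmp4 rose from a mean of 29.4 to 69.7 CPM. No marker of the list was at 0 in all libraries of a group. Whether the ligand differences come with the number of such cells was not tested.

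Gdf6 had the widest difference among the members, in the opposite direction. It had 93, 100 and 86 counts with CD1530 at D10 and 6, 2 and 4 counts with AGN, which are levels of 4.70, 5.50 and 4.83 CPM against 0.375, 0.120 and 0.238 CPM. The log2 fold change was 4.33 (SE 0.42, adjusted p = 1.23e-11), with a 95% interval of 3.49 to 5.17. At D8.5 it was 2.65 (SE 0.47, adjusted p = 1.47e-05), from 32, 21 and 21 counts against 5, 2 and 9 counts. The CD1530 and AGN libraries did not overlap at either time point. Before that, Gdf6 had at most 19 counts in any library and was not called.

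Neural markers were higher with CD1530 as well. All 6 markers (Sox1, Sox2, Pax6, Tubb3, Neurog2 and Nes) were called higher at D10, and their sums were 771 to 783 CPM with CD1530 and 476 to 512 CPM with AGN. Sox1 and Pax6, transcription factor genes of neural progenitors, had D10 means of 16.03 and 10.4 CPM with CD1530 and of 0.367 and 0.362 CPM with AGN. Neurog2 was at 2.64 CPM with CD1530 and at 0 in all 3 AGN D10 libraries. At D8.5, 5 of the 6 were called higher and Nes lower, and the sums overlapped, at 766 to 812 CPM and 731 to 796 CPM. Nes was the largest of the 6 at D10, at 632 CPM with CD1530 and 428 CPM with AGN. The 6 markers of forming joints were mixed at D10. Wnt9a (74.1 against 18.1 CPM), Wnt4 (28.1 against 1.64 CPM), Dact2 and Osr2 had higher means with CD1530. Erg (43.9 against 133 CPM) and Prg4 (4.75 against 18.1 CPM) had lower ones. Their sums were 166 to 172 CPM with CD1530 and 178 to 183 CPM with AGN. The part of neural or joint cells in the Gdf6 level was not tested.

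Gdf5 had a log2 fold change of 0.75 at D10 (95% interval 0.07 to 1.44, adjusted p = 0.0659), and its libraries did not overlap. It was called without AGN D10 replicate 3, with the likelihood ratio test and with the compared groups alone. At D6.25 and D6.75 all libraries of both conditions had 3 counts or fewer, so no fold is given there.

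Chrd was not called between the conditions at D6.25 and D7.5, where the 95% intervals of its log2 fold change ran from -0.19 to 0.07 and from -0.18 to 0.14. It was lower with CD1530 at D6.75 (-0.27, SE 0.07, adjusted p = 0.0036), at D8.5 (-0.31, SE 0.08) and by the widest margin at D10. There it was at 12.9, 14.3 and 15.1 CPM with CD1530 and at 30.9, 36.0 and 32.0 CPM with AGN, a log2 fold change of -1.23 (SE 0.07, adjusted p = 5.47e-18). The call at D6.75 was lost with only the compared groups in the fit (adjusted p = 0.0586).

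Chordin is known as a product of the node and notochord, and markers of that tissue moved with it in some groups and not in others. The 5 markers (Noto, Foxa2, Shh, Foxj1 and T) summed to 7.17 to 9.05 CPM with CD1530 and to 71.1 to 73.1 CPM with AGN at D10, and all 5 were called lower with CD1530. Noto, a transcription factor gene of the node and notochord, was at 0 in all 3 CD1530 D10 libraries. At D6.25, where Chrd was near its peak, the sums were 121 to 127 CPM and 134 to 137 CPM, and at D8.5 they had dropped to 6.65 to 7.31 CPM and 20.0 to 21.6 CPM. In PM, however, the sum was 78.4 to 88.0 CPM, above that of AGN D10, while Chrd was at its lowest mean, 2.98 CPM. Most of that PM sum was T, with a mean of 79.0 CPM. Noto, Foxa2, Shh and Foxj1 were at 0.944, 0.730, 0.799 and 2.24 CPM in PM. At D6.25 with CD1530 they were at 1.60, 46.1, 8.73 and 12.9 CPM, higher as Chrd was. T went the other way, to 54.9 CPM with CD1530 and 60.3 CPM with AGN at D6.25. At D7.5 the sums were 20.4 to 22.2 CPM with CD1530 and 41.8 to 44.0 CPM with AGN, while Chrd was at 12.9 and 13.0 CPM. The part of such cells in the Chrd and Nog levels was not tested.

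Nog, a low transcript here, was lower with CD1530 at D7.5 (log2 -0.87, SE 0.23, adjusted p = 0.0032) and D8.5 (-1.19, SE 0.26, adjusted p = 0.00024). At D8.5 it had 0.614, 0.532 and 0.884 CPM with CD1530 and 1.68, 1.38 and 1.48 CPM with AGN. At D10 the difference was not called (-0.41, 95% interval -0.85 to 0.03).

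Bmp2 was lower with CD1530 at D6.75, at 63.8, 68.1 and 71.3 CPM against 94.4, 94.0 and 92.5 CPM (log2 -0.47, SE 0.05, adjusted p = 3.27e-10), and at D7.5 (-0.33, SE 0.06). It was not called at D8.5 and was higher with CD1530 at D10, at 15.7, 16.5 and 15.7 CPM against 11.1, 11.3 and 13.0 CPM (0.43, SE 0.07, adjusted p = 3.48e-06). Bmp7 was lower with CD1530 at D6.75 (-0.37, SE 0.06) and D8.5 (-0.24, SE 0.07), and was not called at D10 (0.14, 95% interval 0.01 to 0.26, adjusted p = 0.067). It was called at D10 with library sizes alone, with the compared groups alone, without CD1530 D10 replicate 2 and without AGN D10 replicate 3.

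At D10, then, 3 members were higher with CD1530 (Gdf6, Bmp2 and Fst) and 4 were lower (Bmp5, Bmp4, Grem1 and Chrd), when 22.7% of all genes were higher and 24.0% lower. The median log2 fold change over the 10 members was -0.14, beside -0.02 over all genes. Whether the difference between conditions itself varied over the 5 time points was tested with 4 degrees of freedom. This interaction was called for 8 members, when 48.8% of all genes were called. It was not called for Gdf5 (adjusted p = 0.0744) or Nog (adjusted p = 0.0976).

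**Figure D3:**
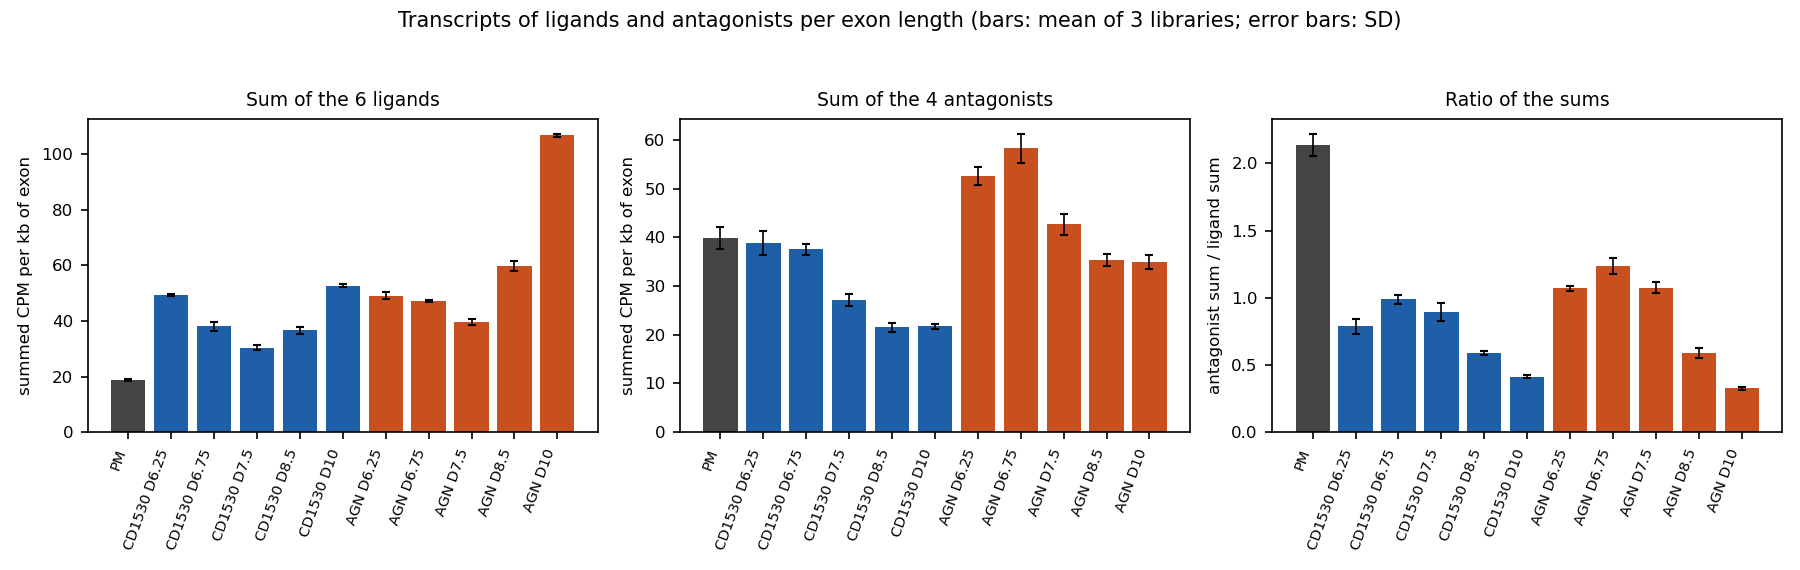
Sums over the 6 ligands (left) and the 4 antagonists (middle) in CPM per kb of exon, and the ratio of the antagonist sum to the ligand sum (right), as means of 3 libraries with SD; PM is dark, CD1530 blue and AGN orange. The ratio is 2.14 in PM and ends at 0.41 with CD1530 and 0.33 with AGN.

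To set ligands and antagonists side by side, levels were divided by exon length and summed by role. Such a sum counts transcripts, not protein or activity, and it is given with no test. The ligand sum was 18.7 ± 0.317 CPM per kb (SD, n = 3) in PM, and 49.3 ± 0.37 with CD1530 and 49.1 ± 1.16 with AGN at D6.25. It then dipped to 30.4 ± 0.876 and 39.7 ± 1.00 at D7.5 and ended at 52.7 ± 0.598 with CD1530 and 107 ± 0.578 with AGN at D10. The libraries of the 2 conditions overlapped at D6.25 and did not overlap at the other 4 time points, where AGN was higher. The antagonist sum was 39.9 ± 2.25 CPM per kb in PM and was higher with AGN than with CD1530 at all 5 time points, with no overlap, for example 34.9 ± 1.36 against 21.7 ± 0.496 at D10.

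The ratio of the transcripts of these 4 antagonists to those of these 6 ligands was 2.14 ± 0.0845 (SD, n = 3) in PM. At D6.25 it was 0.786 ± 0.053 with CD1530 and 1.07 ± 0.0184 with AGN, and it remained higher with AGN through D7.5, with 0.894 ± 0.0654 and 1.07 ± 0.0398. At D8.5 the ratios were 0.588 ± 0.0142 and 0.592 ± 0.0373, with overlapping libraries. At D10 the order was turned, with 0.412 ± 0.0103 with CD1530 and 0.327 ± 0.0122 with AGN. Both sums were lower with CD1530 at that point, and the ligand sum by more. Other genes of the pathway are not in this ratio. Without division by exon length, 15 other antagonists summed to 434 CPM in PM and to 3231 and 4220 CPM at D10. Fstl1 alone was at 239, 2446 and 3116 CPM of these. The sum of 10 other ligands was 286 CPM in PM and 231 and 187 CPM at D10. Gdf3, Nodal and Inhbb had the highest PM means among these, 99.3, 75.1 and 62.2 CPM, and lower means at D10 in both conditions. Inhba, Bmp6, Gdf10 and Gdf11 had higher means at D10 than in PM in both. Gdf10, for example, went from 4.16 CPM to 50.9 and 35.3 CPM. The sum thus does not describe each ligand.

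**Figure D4:**
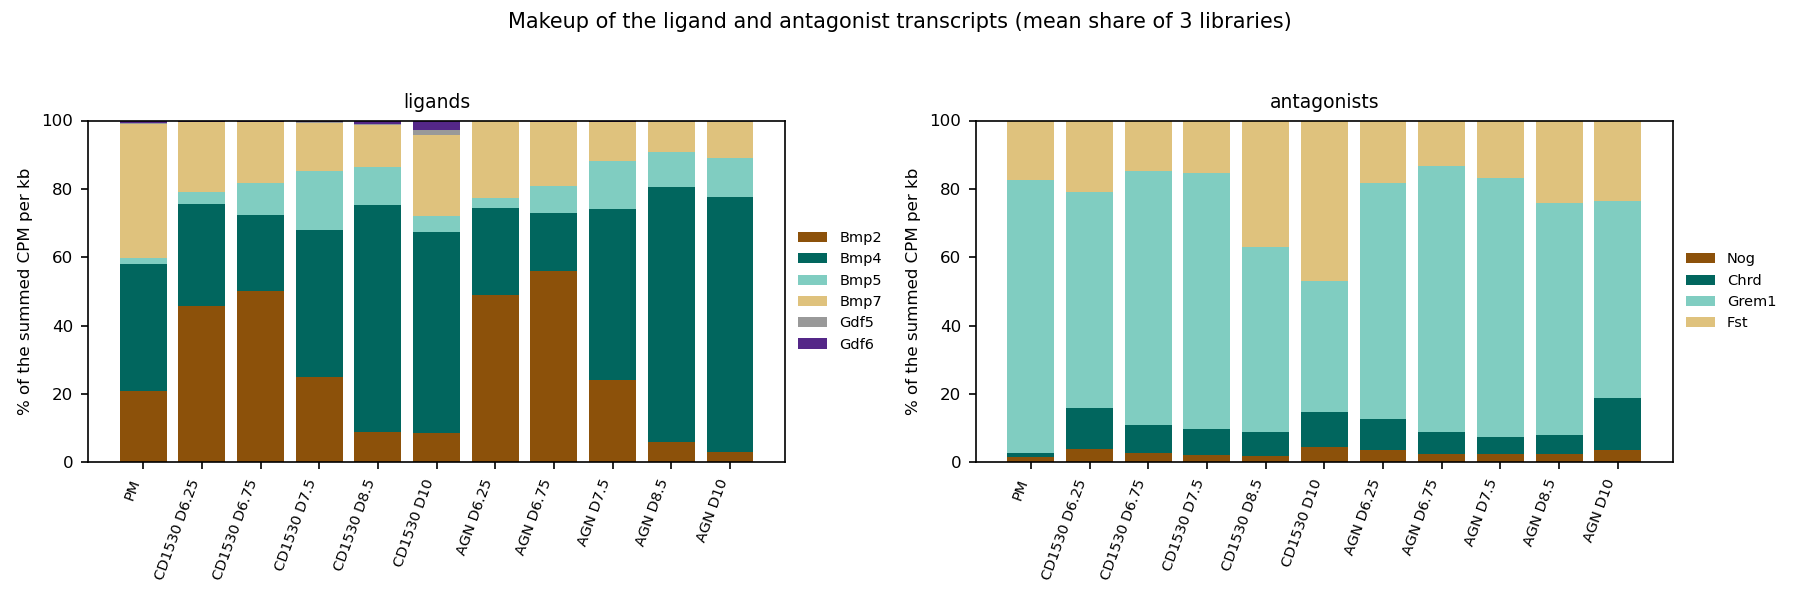
Share of each gene in the summed CPM per kb of the ligands (left) and of the antagonists (right), as the mean of 3 libraries per group. Bmp2 holds 45.7 to 55.9% of the ligand sum at D6.25 and D6.75, Bmp4 holds 58.8 to 74.7% at D8.5 and D10, and Fst passes Grem1 in CD1530 at D10 only, with 47.0 and 38.3% of the antagonist sum.

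The makeup of these sums turned over during the course. In PM, Bmp7 with 39.2% and Bmp4 with 37.1% of the ligand sum were the leading ligands. At D6.25 and D6.75 Bmp2 led with 45.7 and 50.1% with CD1530 and 49.1 and 55.9% with AGN. At D8.5 and D10 Bmp4 led with 66.5 and 58.8% with CD1530 and 74.7 and 74.6% with AGN. Gdf6 reached 2.69% of the ligand sum with CD1530 at D10, and Gdf5 1.45%. Among the antagonists, Grem1 made up 79.9% of the sum in PM and led in every group except CD1530 at D10, where Fst held 47.0% and Grem1 38.3%. Chrd went from 1.20% in PM to 15.1% with AGN at D10.

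The order of the 11 groups was clearest for Bmp2 and Bmp4, in which 2 of the 10 neighboring pairs of groups had overlapping libraries. Bmp2 ran from 93.6 CPM in AGN D6.75 down to 11.6 CPM in CD1530 D8.5, and its 3 lowest groups, AGN D8.5, AGN D10 and CD1530 D8.5, overlapped. Bmp4 ran from 179 CPM in AGN D10 to 15.6 CPM in PM, and Bmp5 from 48.2 CPM in AGN D10 to 1.36 CPM in PM. Grem1 spanned 5.45-fold between AGN D6.75 and CD1530 D10, and Fst and Bmp7 had the narrowest spans, 2.45-fold and 2.94-fold. For Gdf5 9 of the 10 neighboring pairs overlapped, and for Gdf6 and Nog 8, so that little can be said of their order outside the top groups.

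The genes whose group means ran most like each member were picked by Pearson correlation of log2(CPM + 1) over the 11 group means, among 12267 genes that reached 5 CPM in a group. The correlations are descriptions, since all of them rest on the same 33 libraries and the same PM group. Bmp2 ran most like Spink1 and Hkdc1 (r = 0.988 for both). Bmp4 ran most like Cdh4 (0.984) and Tpd52l1 (0.975), and Bmp5 most like Col2a1 (0.987), the main collagen gene of cartilage, and Wipf1 (0.987). Gdf6 ran most like Chrna3 (0.972) and Wnt4 (0.970), and Gdf5 most like Lrrc28 (0.982) and Cd81 (0.978). Bmp7 was paired with Cd63-ps (0.957) and Cd63 (0.950), which share sequence so that their reads may not be told apart. Chrd ran most like Lmcd1 (0.956) and Wnt5a (0.947), Grem1 like Nt5c3 (0.964) and Sirpa (0.963), Nog like Lmbrd1 (0.927) and Foxo1 (0.895), and Fst like Rdh10 (0.859) and Cers4 (0.857). Among the members themselves, Nog and Chrd were the pair most alike (r = 0.775), and Gdf6 and Grem1 the pair most opposed (r = -0.791).

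**Figure D5:**
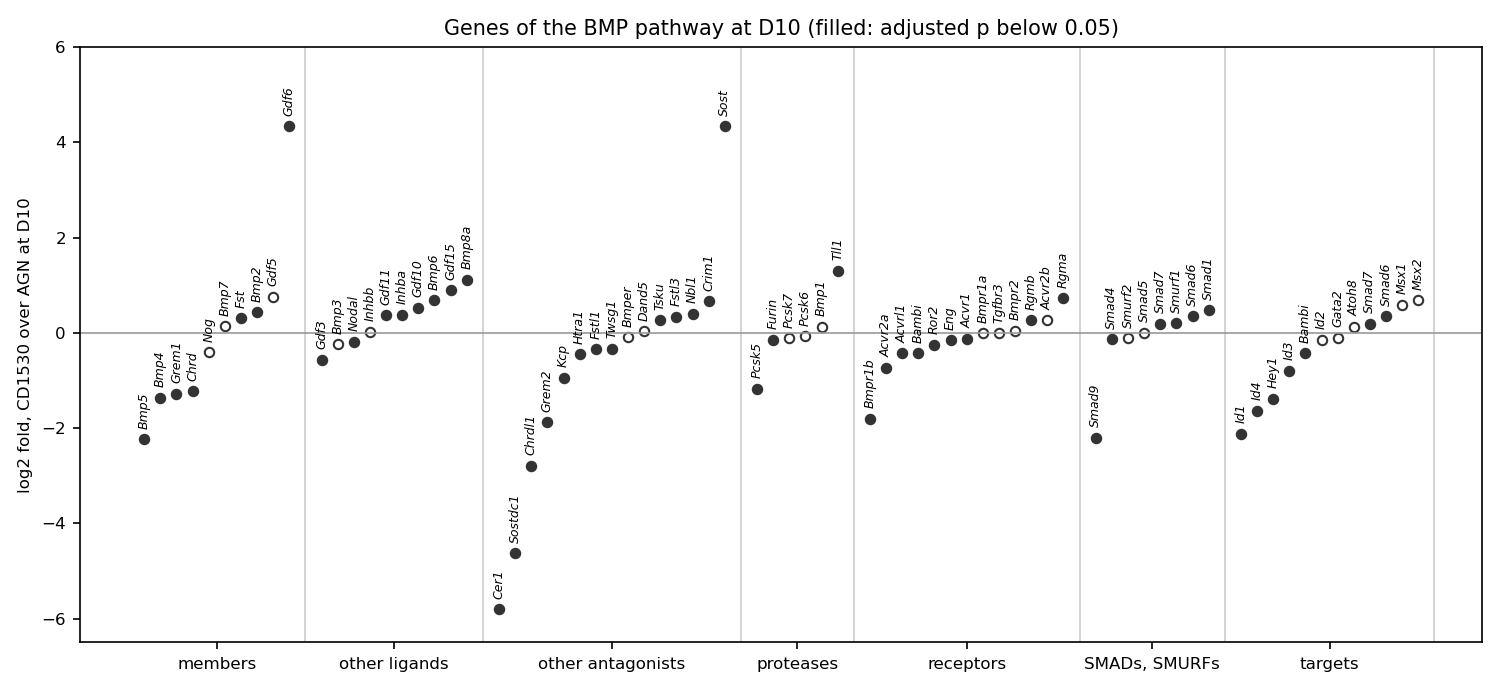
Log2 fold change of CD1530 over AGN at D10 (y axis) for the 10 members and for 6 lists of other genes of the pathway, ordered by value within each list; filled points have an adjusted p below 0.05. The type I and type II receptor genes Bmpr1a and Bmpr2 lie near 0, whereas Bmpr1b at -1.80, Id1 at -2.12 and Cer1 at -5.81 lie well below it.

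The rest of the pathway was described from lists of its genes, beside a share of 46.6% of all genes called at D10. Of the 10 other ligands in the table, 6 were called higher with CD1530 and 2 lower, with a median log2 fold change of 0.38. Among those with a mean of at least 50 counts, Gdf15 (0.90, adjusted p = 0.000264) and Bmp6 (0.69, adjusted p = 2.8e-05) were highest, and Gdf3 (-0.56) and Nodal (-0.19), both TGFβ family ligands of the early embryo, were lowest. Bmp6 rose in both conditions over the course, from 1.8 CPM in PM to 26.6 and 16.5 CPM at D10.

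Of the 15 other antagonists, 5 were called higher and 8 lower with CD1530 at D10 (median -0.33). Cer1, which encodes a secreted inhibitor of Nodal and BMPs, had the widest difference (-5.81, adjusted p = 2.6e-23), at 0.2 CPM with CD1530 and 10.4 CPM with AGN. It had been at 222 CPM with AGN and 26.9 CPM with CD1530 at D6.75. Chrdl1, a relative of chordin, was lower with CD1530 as well (-2.79, adjusted p = 1.86e-35), at 46.5 against 321.9 CPM. Crim1 (0.66) and Nbl1 (0.40) were higher with CD1530. From PM to D6.25, 13 of the 15 were called higher and 1 lower in each condition, beside 34.5% of all genes higher and 33.3% lower with CD1530 and 35.0% and 33.1% with AGN.

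The proteases that process ligands or cleave chordin were split, with 1 higher, 2 lower and 3 not called of 6. Tll1, a tolloid protease that cleaves chordin, was higher with CD1530 (1.31, adjusted p = 2.23e-19), and Pcsk5 (-1.18) and Furin (-0.14), proprotein convertases, were lower. Among 13 receptors and co-receptors, 2 were higher, 7 lower and 4 not called. Bmpr1b, a type I receptor of GDF5, was at 4.3 CPM with CD1530 and 14.9 CPM with AGN (-1.80, adjusted p = 3.25e-15), and Acvr2a was lower as well (-0.73). Bmpr1a (-0.01, adjusted p = 0.85) and Bmpr2 (0.04, adjusted p = 0.8) were not called. The co-receptor genes Rgma (0.73) and Rgmb (0.27) were higher.

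Of the 8 SMAD and SMURF genes, 4 were higher with CD1530, 2 lower and 2 not called. Smad1 (0.48, adjusted p = 1.02e-10) and the inhibitory Smad6 (0.35) were higher and Smad4 was lower (-0.14). Of the 12 target genes, 2 were higher (Smad6 and Smad7), 5 lower and 5 not called, with a median of -0.12. Id1, a direct target of BMP receptors in many cells, was at 8.5 CPM with CD1530 and 37.0 CPM with AGN (-2.12, adjusted p = 3.32e-24), and Id4 at 5.8 and 18.1 CPM (-1.63, adjusted p = 3.31e-11). From PM to D6.25 Id1 rose alike in both conditions, by 1.62 and 1.61 on the log2 scale. At D6.25 itself, 1 of the 12 targets was called between the conditions, beside 1.92% of all genes.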

How the data were processed

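Mouse cultures were sequenced with paired-end reads from NEBNext Ultra libraries, and the authors aligned the reads to GRCm38 with STAR and counted them per gene with featureCounts. The deposited table holds raw counts for 33 libraries, and its annotation release, strand setting and handling of multiply mapped reads are not given in the sources used here. Gene positions and exon lengths were taken from the GENCODE annotation of GRCm38, to which all 17120 genes matched. The 10 members and the gene lists were chosen with earlier results of these data known.

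Counts were scaled by TMM and fitted in edgeR 4.0.16 (R 4.3.3) by robust quasi-likelihood with 1 mean for each of the 11 groups of 3 libraries. filterByExpr removed 0 genes. The 18 comparisons were CD1530 against AGN at 5 time points, 10 consecutive steps, D10 against PM in each condition, and the interaction of condition and time. P-values were two-sided and adjusted by the Benjamini-Hochberg method over all genes within each comparison, with a call at an adjusted p below 0.05. The main fit was tried on simulated counts for the D10 comparison of the conditions and for the interaction, and not for the other comparisons or the alternatives. The biological coefficient of variation was 4.68%. Totals of 17116084 to 38120841 counts set the precision, and 3 counts per library served as the floor for folds. The genes named were the 10 members, the 2 genes most like each, and from each pathway list up to 2 called genes in each direction at D10 with a mean of at least 50 counts, ranked by log2 fold change. Some other genes of these lists are given beside them. DESeq2 1.42.0, other normalizations, filters and tests, a replicate block and leaving out single libraries were tried as alternatives. Promoters were read from the RefSeq table of GRCm38.p6, in which 4 of 10 members matched. Figures were drawn with matplotlib 3.10.9.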

Additional observations from a re-analysis of the deposited data

Results flagged for a closer look

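For 8 of the 10 genes, the difference between CD1530 and AGN varied over the 5 time points in a test of the interaction itself (edgeR, 4 degrees of freedom, adjusted over all genes). The adjusted p was 4.3e-21 for Bmp4, which went from a log2 fold change of 0.24 at D6.25 to -1.36 at D10. It was 9.22e-19 for Bmp5, with 0.13 and -2.23 at the same time points. For Chrd it was 8.57e-13 (-0.06 and -1.23), for Fst 4.79e-13 (-0.25 and 0.31) and for Bmp2 3.16e-10 (-0.10 and 0.43). Grem1 had 4.61e-06 (-0.56 and -1.28), and Gdf6 had 4.97e-06 (1.12 and 4.33). The value for Bmp7 was 0.000151 (-0.10 and 0.14). The interaction was called for 48.8% of all genes. Bmp4, Bmp2 and Fst were called with opposite signs at different time points, Bmp4 at D6.25 and D10, Bmp2 at D6.75 and D10, and Fst at D6.25 and D10.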

How the results depend on the processing

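Counts of members called stayed within 1.5 times of the reported ones under other normalizations, filters and tests. When calls also had to reach 1 in absolute log2 fold change, 0 members were left between the conditions at each of the 3 earliest time points. There were 3 left at D8.5 and 5 at D10. Among the CD1530 steps it left 6 members to D6.25, 1 to D6.75, 1 to D7.5, 2 to D8.5 and 4 to D10. Among the AGN steps it left 4 to D6.25, 1 to D6.75, 2 to D7.5, 3 to D8.5 and 3 to D10. Against PM, 6 members at D10 with CD1530 and 4 with AGN passed it. The share of all genes that passed the same threshold was not counted, so these counts are not a result about the members. Leaving out 1 library gave 1 to 3 members at D6.25 between the conditions, and the 1 was obtained without AGN D6.25 replicate 1.

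No called value changed sign. Values that were not called did so on leaving out 1 library. Between the conditions the log2 ranges were -0.18 to 0.0133 for Bmp5, -1.31 to 0.65 for Gdf5 and -0.0763 to 0.62 for Gdf6 at D6.75, -0.0545 to 0.0145 for Chrd at D7.5, and -0.66 to 0.49 for Gdf5 at D8.5. From PM to D6.25 Gdf6 ranged from -0.20 to 1.13 with CD1530 and from -1.32 to 0.0153 with AGN, and from D6.25 to D6.75 with CD1530 from -0.0329 to 0.54. Gdf5 ranged with AGN from -1.65 to 0.0471 at the step to D6.75 and from -0.52 to 1.18 at D7.5, and with CD1530 from -0.11 to 1.10 at D8.5. In the last step with AGN, Gdf6 ranged from -0.25 to 0.95 and Fst from -0.0967 to 0.01.

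CPM from library totals alone kept the highest group for 8 of 10 members, and Chrd and Fst were then highest in AGN D6.25. Replicate numbers were not treated as pairs. The correlation of deviations between same-numbered libraries had a median of 0.003 (range -0.426 to 0.403). Of the 165 such pairs, 18 were above 0.1, so the median cannot show whether some groups were paired. With the replicate block, 6 instead of 7 members were called from D8.5 to D10 with AGN, Nog being lost (adjusted p = 0.0518), and the counts of members were unaltered in the other 17 comparisons. The cause of these shifts was not tested. Depth limits Gdf5, Gdf6 and Nog, with mean counts of 7, 18.4 and 37.2.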
